A study of Mus musculus with 2 samples.

Results

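The genes described here encode lipid droplet proteins and fatty acid carriers: the perilipins Plin1, Plin2, Plin3 and Plin4, the CIDE proteins Cidea and Cidec, the fatty acid translocase Cd36, and the fatty acid binding proteins Fabp3, Fabp4 and Fabp5. They were followed on single-colour arrays of mouse embryonic fibroblasts, cells grown from embryonic connective tissue, that carry a knockout of Xbp1, a transcription factor gene of the unfolded protein response. All 10 genes were found among the 16637 named genes of the array by current symbol or older synonym, on 11 of 21020 named probes. Plin1 was listed as Plin, Plin2 as Adfp, Plin3 as M6prbp1 and Plin4 as S3-12. Total RNA was taken from 1 sample on day 0, when the cultures reached confluence, and from 1 sample on day 3. In the study's protocol the cells were induced from confluence for 72 h with 10 µg/ml insulin, 0.25 mM IBMX, a phosphodiesterase inhibitor that raises cAMP, 5 µM DXM and 5 µM troglitazone, an agonist of the fat cell receptor PPARγ. Both samples carry the Xbp1 knockout, and no sample with intact Xbp1 is part of this comparison, so the comparison shows what differed between the days in knockout cells. The sources used here do not say whether the line was 1 clone or came from pooled embryos. With 1 array per day no p-value was computed, and no difference below has a replicate check.

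Fat cells store triglyceride in droplets that are coated by proteins of the perilipin family. Plin2 and Plin3 coat small droplets in most cell types, whereas Plin4 is a coat protein of fat and muscle cells. Plin1 belongs to fat cells, where it guards the droplet surface against lipases until hormones call for fatty acids. The CIDE proteins sit where droplets touch and let lipid pass from the smaller to the larger droplet. Cd36 takes up long-chain fatty acids at the cell surface, and the fatty acid binding proteins carry them through the cytosol. Plin1, Cidec, Cd36 and Fabp4 are textbook targets of PPARγ and are counted among the markers of fat cell differentiation.

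The regulatory DNA just upstream of 4 of these genes is shown because they stand for the patterns found: Plin2 was among the genes with higher signal on day 3, Plin1 and Cidec are fat cell genes whose probes stayed dim, and Fabp3 had the largest difference. Each sequence is the 250 bases before the annotated start site, from RefSeq on build GRCm38.p6, and is written 5′ to 3′ on the strand of the gene. Windows were found for 7 of the 10 genes, Cidec having 2. Capitals mark matches, on either strand, to any of 7 short motifs: the PPAR direct repeat AGGTCANAGGTCA, its single repeat unit AGGTCA, the cAMP response element TGACGTCA, its shorter form TGACG, the AP-1 motif TGANTCA, the C/EBP motif TTNNGCAA and the glucocorticoid receptor repeat unit AGAACA. The direct repeat contains the single unit, and the long cAMP element contains the short one.
Plin2, chr4:86670060-86670309, minus strand: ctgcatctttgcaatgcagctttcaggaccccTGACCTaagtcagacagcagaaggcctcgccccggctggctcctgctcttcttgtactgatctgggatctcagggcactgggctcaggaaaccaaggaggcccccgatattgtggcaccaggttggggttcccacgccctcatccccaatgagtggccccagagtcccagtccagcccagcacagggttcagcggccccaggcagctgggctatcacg
Plin1, chr7:79732777-79733026, minus strand: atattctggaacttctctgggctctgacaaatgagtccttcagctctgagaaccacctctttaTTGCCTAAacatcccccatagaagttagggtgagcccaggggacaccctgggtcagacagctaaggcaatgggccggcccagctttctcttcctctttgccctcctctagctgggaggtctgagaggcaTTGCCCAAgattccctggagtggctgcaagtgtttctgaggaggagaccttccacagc
Cidec, chr6:113434765-113435014, minus strand: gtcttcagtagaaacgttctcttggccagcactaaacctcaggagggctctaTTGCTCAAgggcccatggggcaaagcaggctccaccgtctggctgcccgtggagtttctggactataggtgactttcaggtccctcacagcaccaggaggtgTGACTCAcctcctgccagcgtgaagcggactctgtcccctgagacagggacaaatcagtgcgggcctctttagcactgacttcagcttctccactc
Fabp3, chr4:130308488-130308737, plus strand: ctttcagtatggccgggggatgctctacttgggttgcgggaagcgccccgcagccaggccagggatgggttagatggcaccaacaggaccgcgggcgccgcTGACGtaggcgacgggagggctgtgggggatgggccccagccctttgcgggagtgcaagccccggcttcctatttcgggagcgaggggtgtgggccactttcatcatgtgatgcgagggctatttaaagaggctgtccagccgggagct

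The capitals in Plin2 are 1 reversed copy of the AGGTCA unit, which 14% of 32851 promoter windows of this length also hold. Plin1 has 2 matches to the C/EBP motif and Cidec has 1, a motif present in 9.56% of all windows. The Cidec window also has 1 AP-1 match, as do 6.75% of windows, and Fabp3 has 1 TGACG, as do 17.8%. Among the windows not printed, Cd36 has 1 reversed AGGTCA unit, and Plin3, Plin4 and the other Cidec window have no match to any of the 7 motifs. No window of these genes holds the full direct repeat (0.0335% of all windows), the long cAMP element (1.55%) or AGAACA (16.1%). A match describes the letters alone, and binding was not measured.

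Signals are fluorescence intensities. They were put on a common scale by quantile normalization, which gives both arrays the same distribution, and a signal was called detected above 122, the median of all gene probes. Spot scatter was taken from control features printed as 5 or 6 spots, as the SD of log2 raw intensity between spots of the same array. It was multiplied by the square root of 2 to stand for a difference between 2 spots. This repeat-spot SD was 0.38 to 0.44 from the median feature, and 0.57 to 0.88 when pooled over features. It leaves out variation between cultures and between arrays, so it is less than the full error of a difference between days. Raw intensities were higher overall on day 3, with a median over gene probes of 166 against 78 on day 0, while the 7402 empty spots had a median of 0 on both days. Each of 10 fibroblast markers examined exceeded the threshold on day 0 and on day 3, and Dcn, a matrix proteoglycan of fibroblasts, was saturated on both. Among the 10, Lum was 3.04-fold higher on day 3, and Col1a1 (2.09-fold) and S100a4 (2.95-fold) were lower. Of 10 macrophage markers, 4 were detected, and the summed signal of all 10 went from 17386 to 43643.5, mostly Cd14. Of these 4, Cd14 and Itgam were at least 2-fold higher on day 3, Csf1r was at least 2.21-fold lower and Cd68 differed by 0.43 on the log2 scale. Raw readings of the leukocyte genes Ptprc (-2 and 3), Adgre1 (2 and 15) and Tyrobp (8 and 9) were low on both days. The 10 striated muscle markers, listed because muscle makes Fabp3, summed to 772 on day 0 and 794 on day 3. Of these, 2 exceeded the threshold on day 0 and 4 on day 3, with 0 passing 2-fold. The summed signal was 1069 and 1367.5 for 9 endothelial markers, 4 of them detected, and 1142.5 and 1129.5 for 10 epithelial markers, 3 of them detected. These sums hide single differences. Pecam1 (3.00-fold, endothelial) and Krt14 (2.57-fold, epithelial) were higher on day 3. The endothelial gene Kdr went from 168 to 17.5, at least 1.38-fold lower by the threshold. Over all detected genes, 12.8% were at least 2-fold higher and 10.3% at least 2-fold lower. The part of such cells in the results was not tested. In bulk RNA, fewer cells that express a gene and less of its RNA per cell cannot be told apart.

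Of the 10 genes, 5 were detected and all 5 were above the threshold on both days: Plin2, Plin3, Plin4, Fabp3 and Fabp5. None of the 5 was at least 2-fold higher on day 3, where 12.8% of the 10656 detected genes of the array were. Only Fabp3 was at least 2-fold lower, where 10.3% of detected genes were. Counts of 0 and 1 among 5 genes are too small to set apart from those shares. The other 5 genes, Plin1, Cidea, Cidec, Cd36 and Fabp4, were below the threshold on both days and are given by their raw intensities.

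**Figure D1:**
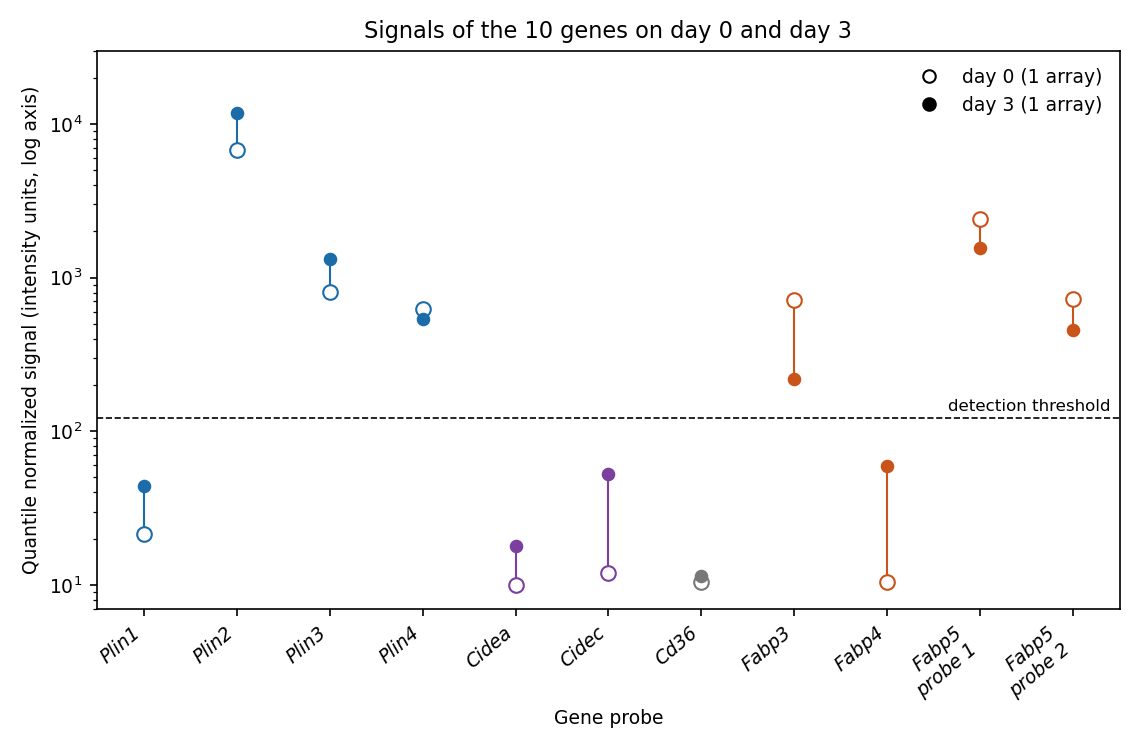
Quantile normalized signal (log axis) of the 11 probes of the 10 genes, with open circles for day 0 and filled circles for day 3, 1 array each; signals under 10 are drawn at 10 and the dashed line is the detection threshold of 122. Plin2 and Plin3 sit higher on day 3, Fabp3 and both Fabp5 probes sit lower, and 5 genes lie under the line on both days.

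Among the perilipins, Plin2, the coat protein of droplets in most cells (probe mMC006008), had a signal of 6735 on day 0 and 11871 on day 3. The day 3 signal was thus 1.76-fold that of day 0. The log2 difference of 0.82 exceeds the scatter of the median control feature, 0.38, and lies within the pooled scatter, 0.88. A larger difference was seen in 17.1% of detected genes. Plin3, the perilipin that moves between the cytosol and young droplets (probe mMC009278), had signals of 806 and 1315, which is 1.63-fold higher. Its log2 difference of 0.71 exceeded both repeat-spot SDs, 0.39 and 0.57, and 20.2% of detected genes had a larger one. Plin2 and Plin3 were thus both higher on day 3 by less than 2-fold.

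Plin4, a coat protein of fat and muscle cells (probe mMC024964), had signals of 623.5 on day 0 and 535.5 on day 3. Its log2 difference of -0.22 lay within the scatter of repeated spots, 0.44. The signal of Plin4 sat well above the threshold on day 0, the day of confluence, although the gene is best known from fat and muscle cells. Plin1, the fat cell perilipin (probe mMC010860), had raw intensities of 12 and 69, and its normalized signals of 21.5 and 44 were both under the threshold, so no fold is given.

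For the CIDE genes, raw intensities went from 7 to 81 for Cidec, which drives the growth of the large droplets of white fat, and from 3 to 26 for Cidea, its relative in brown fat. On day 0 the Cidec reading equalled the 95th percentile of empty spots, 7, and the Cidea reading was below it, with 28.8% of empty spots reading as high or higher. On day 3 both were above the empty-spot percentile of 9, and 0 of 7402 empty spots reached the reading of Cidec and 1 reached that of Cidea. Cd36, the fatty acid transporter, stayed lowest on day 3, from 6 to 16, with 16 empty spots at or above that reading.

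The fatty acid binding proteins differed from each other. Fabp3, the heart and muscle form (probe mMC023478), had raw intensities of 566 on day 0 and 284 on day 3 and normalized signals of 716.5 and 217.5. It was 3.29-fold lower on day 3. The log2 difference of -1.72 exceeded both repeat-spot SDs, 0.44 and 0.78, and only 3.05% of detected genes had a difference further toward day 0. Fabp3 was the only gene here whose raw intensity was also well below that of day 0 on the brighter day 3 array. Fabp5, the form of skin and many other cells, was lower by both of its probes. The first (mMC002962) went from 2403 to 1564 (1.54-fold lower, log2 difference -0.62) and the second (mMR028770) from 725.5 to 458 (1.58-fold lower, -0.66), against median repeat-spot SDs of 0.39 and 0.44. The pooled SDs were 0.57 and 0.78, so the first exceeds its pooled SD and the second does not. Raw intensities of Fabp5 hardly differed, 2013 and 1840 for the first probe and 573 and 565 for the second, so the lower values come with the common scale.

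Fabp4, the fat cell form and a classical marker of differentiation (probe mMC026407), had raw intensities of 6 on day 0 and 90 on day 3. Its normalized signals were 10.5 and 59.5, both below 122. On day 0, 10.5% of empty spots read at least as high as the Fabp4 probe, and on day 3 none of the 7402 did. Control features of similar brightness on day 3, with mean raw intensities of 20 to 150, had a median SD between spots of 21.6 intensity units over 62 features and a highest SD of 65.4. The rises of Plin1 (12 to 69) and Cidea (3 to 26) were smaller than that highest SD. Those of Fabp4 (6 to 90) and Cidec (7 to 81) were larger. That SD describes scatter between spots on the day 3 array and leaves out the scatter on day 0. It is therefore not the error of a difference between days and cannot decide whether these rises exceed scatter. Features of 0 to 20, the range of the Cd36 reading of 16, had a median SD of 5.78 and a highest SD of 15.0 over 89 features.

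Many dim probes read higher on the day 3 array, whatever their gene. Of the 29922 gene probes, 8182 (27.3%) read 12 or less on day 0, the highest day 0 reading of the 5 dim genes. The median of these probes was 5 on day 0 and 14 on day 3, and their 95th percentile on day 3 was 89. Against that background, 4.94% of the 8182 probes reached the day 3 reading of Fabp4, 6.45% that of Cidec and 9.18% that of Plin1. The shares were 25.7% for Cidea and 44.3% for Cd36, which lie among the bulk of dim probes. Ranked within each array, a measure that scaling by a constant does not change, Fabp4 went from percentile 15.0 of all gene probes to 39.1 and Cidec from 17.0 to 37.0. Cidea went from 8.70 to 23.9, Plin1 from 25.9 to 34.2 and Cd36 from 15.0 to 16.7.

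**Figure D2:**
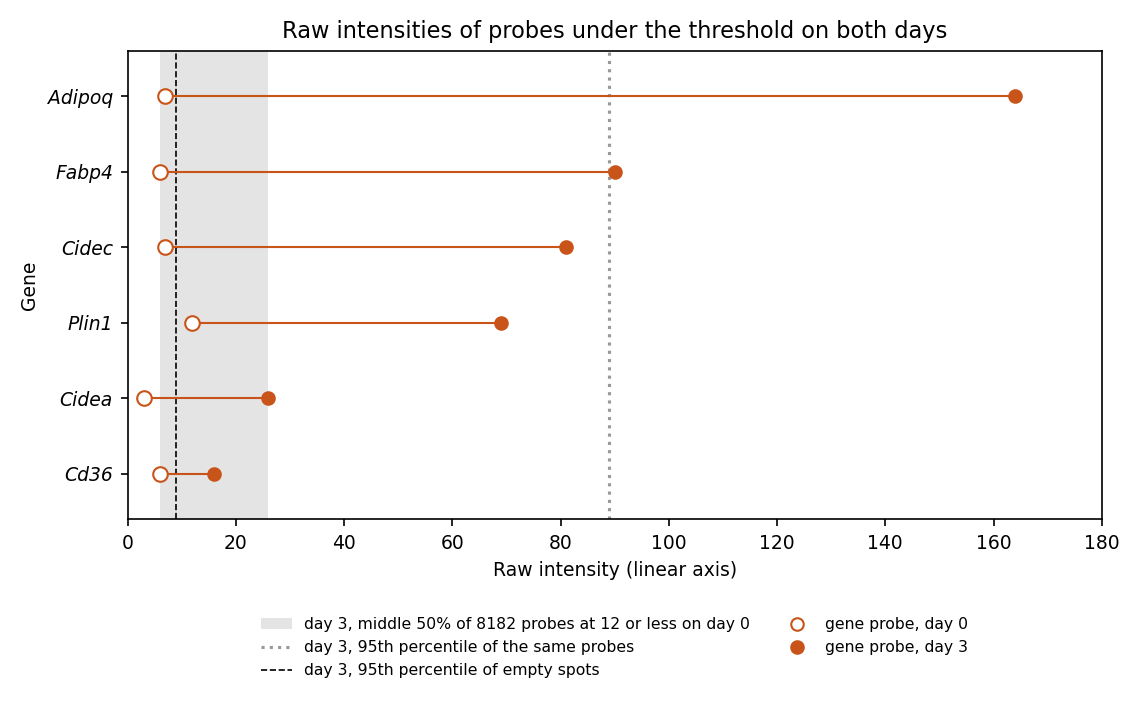
Raw intensity (linear axis) of the 5 dim genes and of Adipoq on day 0 (open) and day 3 (filled), 1 array each; the grey band is the middle 50% and the dotted line the 95th percentile, on day 3, of the 8182 gene probes that read 12 or less on day 0, and the dashed line is the 95th percentile of empty spots. Fabp4 lies just past the dotted line, Cidec and Plin1 between the band and that line, and Cidea and Cd36 at or inside the band.

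Reference genes of adipogenesis were read on the same arrays. Adipoq, the fat cell hormone adiponectin, had raw intensities of 7 and 164, a day 3 reading reached by 0.55% of the 8182 probes. It stayed under the threshold by its normalized signals of 12 and 120.5. Pparg, the receptor that troglitazone activates, had signals of 608 and 372.5 (log2 difference -0.71, repeat-spot SDs 0.44 and 0.78). Cebpa, its partner in fat cell differentiation, had 207.5 and 199 (-0.06). Of 9 adipocyte markers other than the 10 genes, 3 were above the threshold on day 0 and 4 on day 3. Of the 4, 3 were at least 2-fold higher on day 3, where 12.8% of all detected genes were. They were Lpl, the lipase gene Lipe (338 and 1070.5, 3.17-fold) and the glycerol channel gene Aqp7 (at least 2.21-fold). Aqp7 was above the threshold on day 3 only (96.5 and 269.5), so it counts among the 4 through its day 3 signal. A count among 4 genes is small, and it was not tested. The fourth, the glucose transporter gene Slc2a4, differed by 0.35 on the log2 scale, and the other 5 were below the threshold on both days. The summed signal of the 9 went from 9132 to 60980, most of it Lpl, whose probe was saturated on day 3.

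A wider set of 52 genes of lipid droplets and fatty acid handling was then read beside the 10. Among the 34 detected, a signal at least 2-fold higher on day 3 was read for 6 (17.6%) and a signal at least 2-fold lower for 3 (8.82%), against 12.8% and 10.3% of all detected genes. Their median log2 difference was 0.08, against 0.03 for all detected genes. Raising every signal under the threshold to 122 left 6 higher and 2 lower, against 10.2% and 8.51% of all genes so treated. For the 10 genes the same step left 0 higher and 1 lower.

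Of 9 detected droplet coat and surface genes, 1 (11.1%) was at least 2-fold higher, against 12.8% of all detected genes. In this group 7 differed by less than 1.5-fold, as did 54.9% of all detected genes. Abhd5, the co-activator of the lipase Pnpla2, from which Plin1 keeps it apart in resting fat cells, went from 3396.5 to 14671, which is 4.32-fold higher (log2 difference 2.11, repeat-spot SDs 0.38 and 0.88). Plin5, the perilipin of oxidative tissues, differed by 0.38 on the log2 scale (448 and 583), and Acsl3, an acyl-CoA synthetase of young droplets, by 0.31 (169 and 209). Hilpda, a droplet protein that inhibits Pnpla2, differed by -0.61 (2036 and 1330.5).

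Genes that build droplets at the endoplasmic reticulum had 3 of 8 detected members at least 2-fold higher and 1 lower, against 12.8% and 10.3% of all detected genes. Counts among 8 genes are too small to set apart from those shares. Soat1, of the same group, gave log2 differences of -0.77 and -1.12 by its 2 probes, and only the second, dimmer one passes 2-fold. Bscl2, which encodes seipin, the protein that shapes new droplets, went from 2541 to 5909.5 (2.33-fold higher). Lpin1, which makes diacylglycerol from phosphatidic acid, went from 715.5 to 1803 (2.52-fold higher). Fitm2, which helps release lipid into droplets, went from 4654.5 to 14383.5 (3.09-fold higher) by its first probe, but its other probe gave 234 and 197.5, a log2 difference of -0.24, so the probes disagree. Pcyt1a, the enzyme that supplies phosphatidylcholine for the droplet surface, was 2.10-fold lower (1857 and 883.5).

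Among the other intracellular lipid binding proteins, relatives of the Fabp genes and carriers of acyl-CoA and sterols, 4 of 11 were detected. Of the 4, 0 passed 2-fold, where 12.8% of all detected genes were that much higher and 10.3% that much lower. Crabp1, a retinoic acid carrier, differed by 0.93 on the log2 scale (423.5 and 809). Scp2, a sterol carrier, differed by 0.88, and by 1.02 on its other detected probe. Crabp2 (-0.14) and the acyl-CoA carrier Dbi (-0.04) differed by less than their repeat-spot SD of 0.38. Raw readings of Fabp1, the liver form, were -4 and -1, and those of Fabp2, the gut form, were -5 and 6, at the level of empty spots on both days. Other relatives below the threshold read higher: Fabp6 went from 20 to 98 and Fabp12 from 11 to 94. Both day 3 readings exceed the 90 of Fabp4, so a dim probe reading higher on day 3 was not particular to Fabp4. Fabp7 (3 and 9), Fabp9 (4 and 10) and Rbp2 (31 and 49) stayed lower.

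Of the 4 groups, fatty acid uptake and activation held the largest difference in each direction. Of 13 detected genes, 2 (15.4%) were at least 2-fold higher and 2 (15.4%) at least 2-fold lower, against 12.8% and 10.3% of all detected genes. Only 1 of the lower 2 remained once signals below 122 were raised to 122. Lpl, which frees fatty acids from lipoproteins outside the cell, was at least 6.99-fold higher by a probe saturated on day 3 and 7.12-fold higher by its other probe. Acsl4, an acyl-CoA synthetase, was 3.04-fold higher (8749.5 and 26568), and its other 3 probes gave log2 differences of 1.20, 1.26 and 1.63. Cav1, the coat protein of caveolae, small pits of the cell membrane, was 3.57-fold lower (52812.5 and 14780.5). Acsl6 went from 233 to 111.5, below the threshold on day 3.

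**Figure D3:**
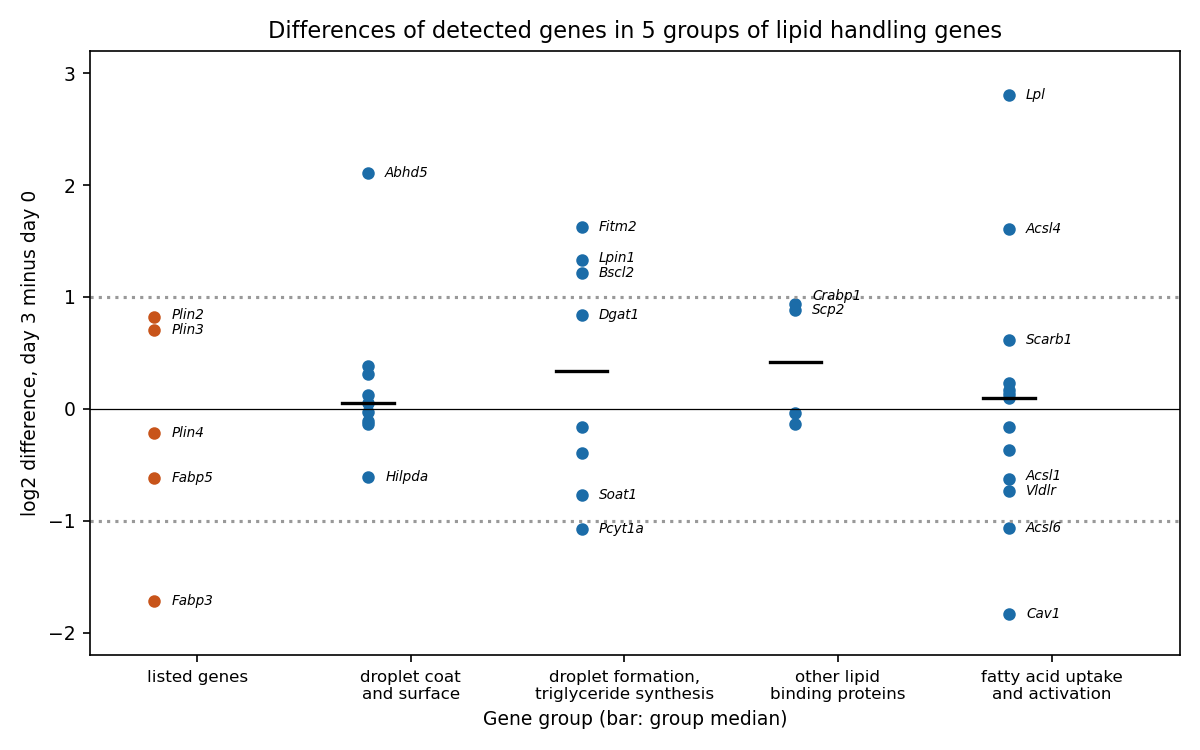
Log2 difference, day 3 minus day 0, of each detected gene (1 point per gene, 1 array per day) for the 5 detected genes of the 10 and for 4 groups of related genes; bars are group medians, dotted lines mark 2-fold, and names are given for the 5 genes and for other genes beyond 0.6. Fabp3 is the only one of the 5 outside the dotted lines, and Lpl and Abhd5 lie highest among the other genes.

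The choice of scaling between the arrays moved the values of all 5 detected genes. Without normalization, detected genes as a whole had a median difference of 0.67, and 92.6% of the genes that passed 2-fold were higher on day 3. Under median scaling over all gene probes the median was -0.49 and that share was 24.3%, and under scaling over probes detected on both days the share was 66.7%, against 55.4% in the main setting. Plin2 gave 0.15 under median scaling over all gene probes and 1.24 without normalization, and Plin3 gave 0.18 and 1.27, so under that median scaling both differences lie within the scatter of repeated spots. Fabp5 gave -1.22 and -0.13 in the same settings. Taken relative to the median of all detected genes in these 3 settings, a step added after the data were seen, Plin2 was higher by 0.57 to 0.64 and Plin3 by 0.60 to 0.67. On the same footing Plin4 gave -0.24 to -0.17, Fabp5 -0.80 to -0.73 and Fabp3 -1.66 to -1.60. The 3 settings differ by 1 constant per array, so their closeness is no separate check. Plin4 is the only one of the 5 whose sign turned in any setting, to 0.43 without normalization, and Fabp3 was lower on day 3 in every setting tried, from -2.08 to -0.99.

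**Figure D4:**
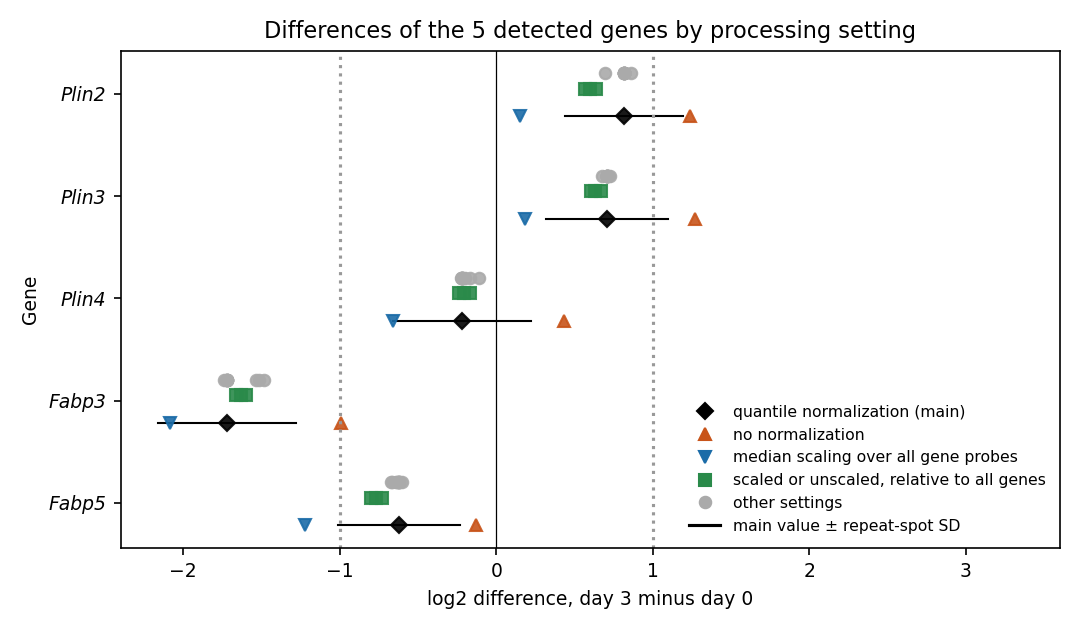
Log2 difference, day 3 minus day 0, of the 5 detected genes under each processing setting (1 mark per setting, 1 array per day); the black line is the main value ± the median repeat-spot SD, and dotted lines mark 2-fold. Plin2, Plin3, Fabp3 and Fabp5 stay on 1 side of 0 in every setting, and the settings furthest from the main value are no normalization and median scaling over all gene probes.

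In the authors' table for the whole series, the 5 detected genes had values and the 5 dim genes had none. Its log2 differences were 0.81 for Plin2, 0.72 for Plin3, -0.17 for Plin4 and -1.48 for Fabp3, and for the 2 probes of Fabp5 they were -0.63 and -0.61.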

How the data were processed

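The deposited table of each sample lists a linear intensity per spot (39200 spots), and the empty spots near 0 show that background had been subtracted. Per the labels' protocols, Phalanx amplified 1 µg of total RNA and labelled it with Cy5. The scanner, the image software and the way background was subtracted are unknown. The authors' series table holds normalized intensity values for 11482 of the 29922 gene probes. What decided which probes it holds is unknown. It served as an alternative.

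Quantile normalization of the gene probes used limma 3.58.1 (R 4.3.3). It was run on simulated arrays made from the day 0 intensities, with a constant scale between arrays and few probes changed. That run checked the code and cannot say which scaling suits the real pair of arrays. Signals under 10 were set to 10 before log2. No background was subtracted. Raw intensities of 65000 or more counted as saturated. A gene with several probes was read from the probe of highest mean log2 signal. Symbols came from the platform annotation and were updated through RefSeq (GRCm38.p6): 17558 probes were current, 3410 were synonyms, 52 were kept as given and 8902 had no symbol. Probe positions were not used here. Readings of different probes were ranked against each other only for the dim probes.

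Genes, lists and alternatives were chosen with earlier results of these data known, and the limit of 12 for dim probes was set after seeing the values. The 10 genes were named whatever their values, as were Pparg, Cebpa and Adipoq, and from each of 4 related groups up to 4 detected genes with the largest differences. Named outside that rule, after their values were seen, were Fabp1, Fabp2, Fabp6, Fabp7, Fabp9, Fabp12, Rbp2, Soat1, Lipe, Aqp7 and Slc2a4. The same holds for Dcn, Lum, Col1a1, S100a4, Pecam1, Kdr, Krt14 and the macrophage markers. Other scalings, treatments of low signals, detection filters, probe choices and the authors' table were tried, 12 in all, and 3 more were added after the data were seen. Precision is limited by the number of arrays, 1 per day.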

Additional observations from a re-analysis of the deposited data

How the results depend on the processing

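Among the 10 genes, the main setting had 0 at least 2-fold higher on day 3 and 1 at least 2-fold lower. Without normalization 2 were higher, Plin2 and Plin3, and 0 lower, with Fabp3 at -0.99, where 35.7% of all detected genes were higher and 2.85% lower. With the threshold at the 95th percentile of empty spots, and likewise with no filter on dim probes, 3 were higher (Plin1, Cidec and Fabp4), against 14.3% of all genes above the empty-spot threshold. Cidec and Fabp4 passed that threshold on day 3 only, that is, through the day of their higher reading. Their day 0 signals of 12 and 10.5 lie next to the floor of 10, so this count cannot be read as an excess. Under median scaling over all gene probes 2 were lower, Fabp3 and Fabp5, where 24.3% of all detected genes were lower and 7.78% higher. Of the related genes, 6 were higher and 3 lower of 34 in the main setting, and 2 and 7 of 34 under that scaling. Without normalization they were 17 and 1 of 38, and in both settings the shares of all genes moved as given above. Counts were 10 and 5 of 49 with the empty-spot threshold (14.3% and 11.5% of all genes) and 10 and 5 of 52 with no filter (13.4% and 10.8%). With the dimmest probe of each gene, 4 were higher and 5 lower of 30, against 12.1% and 12.7% of all detected genes. The 3 settings relative to all genes were added after the data were seen and gave 0 higher and 1 lower of the 10 genes. The cause of these differences was not tested. With 1 array per day neither leaving out an array nor a test was possible, and dim probes limit what can be said of Plin1, Cidea, Cidec, Cd36 and Fabp4. No paired analysis was possible because each day has 1 array and the labels give no replicate numbers.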
